A study of Mus musculus with 11 samples.

Results

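The genes described here encode the proteins of the mitochondrial ribosome, the particle that translates the few messenger RNAs made inside mitochondria. They were chosen by name: every gene whose symbol in the messenger RNA table is Mrpl or Mrps followed by a digit. This gave 75 of the 21759 genes with a symbol, 46 named Mrpl after the large subunit and 29 named Mrps after the small one. They are measured by 87 probe sets, and for the 11 genes with several of these the probe set with the highest mean signal was used. Messenger RNA was measured in the tibialis anterior (TA), a fast muscle of the lower leg, of 11 male mice aged 14 weeks, with 1 Affymetrix Mouse Gene ST 1.1 array for each animal. The 3 C57 mice were untreated wildtype animals of the C57/B10 strain. The 4 *mdx* mice, on the same strain, carried the *mdx* mutation of the dystrophin gene and were untreated. The 4 Pip6e-PMO-treated mice, here T1 to T4, were *mdx* mice given a single tail vein injection of 12.5 mg/kg at 12 weeks of age. Pip6e-PMO is an antisense morpholino oligomer joined to a cell-penetrating peptide, made to skip a *Dmd* exon so that dystrophin can be produced. No injected control group, with saline or with an unrelated oligomer, was analysed here, so treatment and injection cannot be told apart. Only the mid-belly of the muscle was sectioned.

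Mitochondrial ribosomes make the core subunits of respiratory complexes that mitochondrial DNA encodes, and they sit at the inner membrane. All of their proteins are nuclear-encoded, made in the cytosol and imported, so their messenger RNAs are ordinary nuclear transcripts. Part of the proteins descend from bacterial ribosomal proteins, and others were added in the mitochondrial lineage. Skeletal muscle depends on these ribosomes for its oxidative capacity, which differs between fibre types.

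Values are log2 intensities. A probe set's level has no common scale with another's, so differences are given only within a gene, between groups of mice. A gene is called where limma's test, fitted over the 14494 probe sets with a mean signal of 30 or more in at least 1 group and adjusted by the method of Benjamini and Hochberg, gave an adjusted p under 0.05. All 75 genes passed this minimum, and 74 had a mean of 30 or more in every group. The exception was Mrpl47, with the lowest signal, at a mean intensity of 28.9 in the *mdx* mice. The 3 comparisons share mice: each uses groups that 1 of the others uses too, so their results are not independent.

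One array stood apart. The spread of T2 about the other treated mice over all tested probe sets, as a scaled median absolute deviation, was 0.381 against 0.153 to 0.257 for the other 10 arrays about their own groups. The study reported the lowest exon skipping and dystrophin, by RT-qPCR and mass spectrometry, in its treated sample T2. It also described the messenger RNAs of T2 as the least restored. Whether this accounts for the spread was not tested, and results are given with and without T2. The tissue label was checked on 12 fast-fibre genes, whose summed intensity ranged over 81980 to 84204 (C57), 82611 to 84664 (*mdx*) and 80489 to 84721 (treated), with 0 of the 12 called by limma in any comparison and 1 in each at an unadjusted p under 0.05. Markers of other cells did move, and the counts that follow are of called genes. Of all probe sets, 7.06% were called higher and 4.96% lower in *mdx* minus C57. These shares were 7.26% and 3.88% in treated minus *mdx*, and 15.6% and 8.96% in treated minus C57. Of 10 tested macrophage genes, 9 were higher in *mdx* than in C57 mice, and their summed intensity ranged over 1932 to 2332 (C57), 4802 to 7161 (*mdx*) and 3181 to 4954 (treated). Against *mdx* mice 3 of the 10 were lower and 1 higher in treated mice, and against C57 mice 5 were higher. All 6 regenerating-fibre genes were higher in *mdx* mice, with sums of 1087 to 1604 (C57), 3287 to 5297 (*mdx*) and 1691 to 3661 (treated), and in treated mice 1 was lower than in *mdx* and 3 higher than in C57 mice. Of 8 fibroblast and matrix genes, 4 were higher in *mdx* and 6 in treated mice than in C57 mice (sums of 4593 to 6344, 6731 to 8508 and 6317 to 10842 in C57, *mdx* and treated mice), and of 5 adipocyte genes 4 were lower in treated than in *mdx* mice and 4 lower than in C57 mice (1122 to 1428, 1020 to 1540 and 1075 to 1135 in the same order). Of 5 tested slow-fibre genes, Tnni1 was higher and Myl3 lower in *mdx* than in C57 mice, Tnnt1 and Myl2 were lower and Myl3 higher in treated than in *mdx* mice, and Myl2 and Myl3 were lower in treated than in C57 mice (sums of 817 to 1191, 642 to 1946 and 580 to 1215). The part of these markers in the results below was not tested, and in a piece of whole muscle fewer cells of a type and less RNA per cell cannot be told apart.

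Mouse by mouse, the mitochondrial ribosomal protein genes lay lower on average in both dystrophic groups than in C57 muscle, and in the treated mice they were also spread most widely. The median over the 75 genes of the difference from the C57 mean was -0.04, -0.06 and 0.10 in the C57 mice themselves. In the *mdx* mice it was -0.12, -0.10, -0.15 and -0.22, below every C57 mouse. In T1 to T4 it was -0.34, -0.30, -0.13 and -0.14. The range of the treated mice therefore overlapped that of the *mdx* mice, with T1 and T2 below all 4 of them and T3 and T4 among them. The interquartile range of the same 75 differences was 0.13 to 0.22 in C57 mice, 0.19 to 0.25 in *mdx* mice and 0.40 to 0.52 in treated mice, so that every treated mouse exceeded every other mouse. The C57 mean includes the C57 mice themselves, which narrows their own differences. Over all tested probe sets the median difference from the C57 mean lay between -0.03 and 0.02 in all 11 mice. All probe sets were also spread more widely after treatment. Their group differences had quartiles of -0.15 and 0.16 in *mdx* minus C57, and of -0.2 and 0.29 in treated minus C57. For the 75 genes these quartiles were -0.24 and -0.05, and -0.39 and -0.03.

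**Figure D1:**
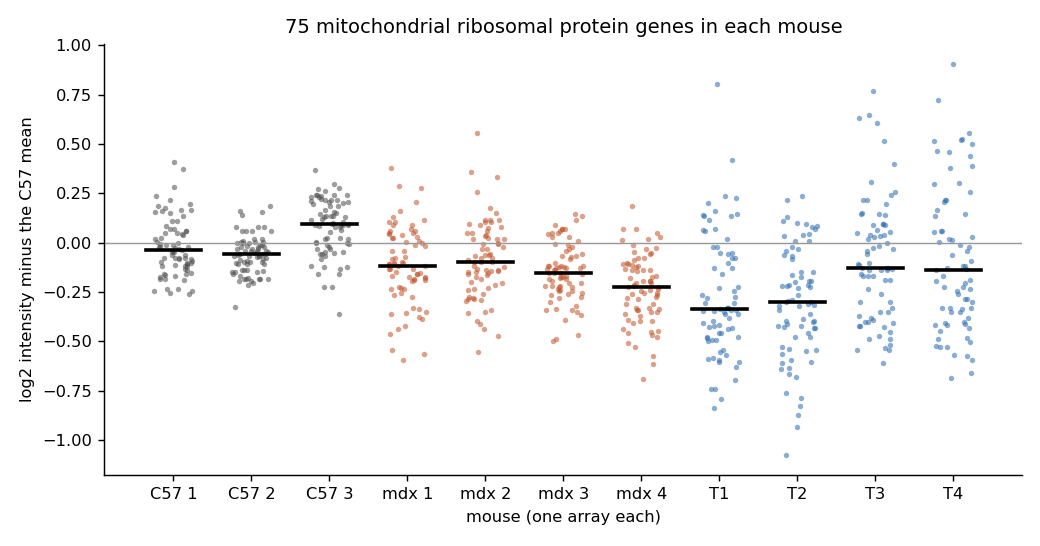
Each point is 1 of the 75 mitochondrial ribosomal protein genes in 1 mouse, as its log2 intensity minus the mean of the 3 C57 mice (y axis), for C57 replicates 1 to 3, *mdx* replicates 1 to 4 and treated mice T1 to T4 (x axis), and the bar is the median over genes. The medians of the *mdx* mice lie from -0.22 to -0.10 and those of the treated mice from -0.34 to -0.13, and the points of the treated mice are the most widely spread.

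The first comparison, of *mdx* with C57 muscle, asks how loss of dystrophin alters these messenger RNAs. In *mdx* muscle 62 of the 75 genes (82.7%) had a lower mean than in C57 muscle, against 52.3% of all probe sets, and the median difference was -0.14 on the log2 scale against -0.01 over all probe sets. Few passed the test singly: 3 of 75 (4.0%) were called, all lower, where 12.0% of all probe sets were called, 4.96% lower and 7.06% higher. In 21 genes (28.0%) every *mdx* mouse lay below every C57 mouse, against 11.3% of all probe sets, and in 0 genes above, against 13.1%.

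Mrps18a fell the most. It is 1 of 3 nuclear relatives of the bacterial protein S18, and despite its name it sits in the large subunit. Its log2 intensity was 9.89, 10.02 and 10.16 in the C57 mice, 9.48, 9.47, 9.63 and 9.57 in the *mdx* mice, and 9.68, 9.46, 9.49 and 9.59 in T1 to T4. Both dystrophic groups lay below the C57 mice with no overlap. T3 and T4 lay among the *mdx* mice, T1 above all of them and T2 just below. The difference between *mdx* and C57 was -0.49 ± 0.10 (SE, limma, adjusted p = 0.00656), a level that fell by 28.6%, and it stayed called when any 1 of the 11 mice was left out (adjusted p of 0.00478 to 0.0352). Its probe set lies on the plus strand of chromosome 17.

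The other 2 called genes were Mrps25, a small-subunit protein without a bacterial relative, and Mrpl16, a relative of the bacterial protein L16 of the large subunit. Mrps25 measured 7.32, 7.57 and 7.81 in C57 mice against 7.19, 7.21, 7.10 and 7.04 in *mdx* mice, a difference of -0.43 ± 0.13 (SE, limma, adjusted p = 0.046). Mrpl16 measured 8.40, 8.15 and 8.20 against 7.83, 7.81, 7.93 and 7.80, a difference of -0.41 ± 0.12 (SE, limma, adjusted p = 0.0482). In neither gene did the groups overlap. Both sat at the edge of the threshold: the adjusted p reached 0.19 for Mrps25 and 0.168 for Mrpl16 with 1 mouse left out. Of the 11 omissions, 7 ended the call of Mrps25 and 10 that of Mrpl16, the exception for Mrpl16 being T2 (adjusted p = 0.0107). With T2 left out 6 genes were called, all lower (8.0% against 15.2% of all probe sets), and with C57 replicate 2 or 3, T4 or any *mdx* mouse left out 1 was. For these last omissions the share of all probe sets is not given here. Mrpl30, a relative of bacterial L30, had a difference as large as these but a wider error and no call (-0.44 ± 0.19, SE, limma, adjusted p = 0.174).

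At the other end, 0 genes were called higher by limma, and 14 of the 75 passed an unadjusted p under 0.05 in either direction, against 24.9% of all probe sets. The largest positive differences were those of Mrpl32 (0.16 ± 0.18, SE, limma, adjusted p = 0.642), Mrpl42 (0.16 ± 0.16; adjusted p = 0.596) and Mrpl20 (0.11 ± 0.17; adjusted p = 0.774), none of them called. Mrpl32 measured 5.55, 5.58 and 5.38 in C57 and 5.79, 5.86, 5.62 and 5.39 in *mdx* mice, Mrpl42 measured 8.22, 8.38 and 8.06 against 8.60, 8.55, 8.29 and 8.08, and Mrpl20 measured 7.83, 8.00 and 8.36 against 8.34, 8.24, 8.05 and 8.05. The groups overlapped in each.

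The second comparison, of treated with untreated *mdx* muscle, asks what changed after the oligomer. Genes of the particle moved both ways: 8 of 75 (10.7%) were called, 5 lower and 3 higher, a share close to the 11.1% of all probe sets (3.88% lower, 7.26% higher). The median difference was -0.08 against 0.02 over all probe sets. In 10 genes (13.3%) every treated mouse lay below every *mdx* mouse, against 6.69% of all probe sets, and in 3 genes (4.0%) above, against 9.29%.

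Among the 5 that fell, Mrps11, a relative of the bacterial protein S11 of the small-subunit platform, changed the most. It measured 7.58, 7.80, 7.68 and 7.73 in *mdx* mice and 7.09, 6.96, 7.38 and 7.35 in T1 to T4, with 7.87, 7.82 and 7.81 in C57 mice. The 3 groups did not overlap at all, C57 being the highest and the treated mice the lowest. The difference from *mdx* was -0.50 ± 0.10 (SE, limma, adjusted p = 0.0179), a level that fell by 29.4%, and the call was lost (adjusted p = 0.0534) only without *mdx* replicate 4.

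Mrpl54 and Mrpl52 are large-subunit proteins without bacterial relatives. Mrpl54 measured 9.19, 9.28, 9.36 and 9.27 in *mdx* mice and 8.89, 8.81, 8.83 and 8.86 in treated mice (SD of 0.03 among the treated mice, n = 4). Mrpl52 measured 9.22, 9.28, 9.38 and 9.22 against 8.61, 8.72, 8.98 and 9.0. Neither gene's groups overlapped, and the differences were -0.43 ± 0.08 for Mrpl54 (SE, limma, adjusted p = 0.0152) and -0.45 ± 0.11 for Mrpl52 (SE, limma, adjusted p = 0.0289). Both lay close to their C57 values in *mdx* muscle before this fall, with 9.35 ± 0.14 (SD, n = 3) in C57 and 9.27 ± 0.07 (SD, n = 4) in *mdx* mice for Mrpl54, and 9.40 ± 0.16 and 9.28 ± 0.08 for Mrpl52.

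Mrpl17, a relative of the bacterial protein L17, and Mrpl23, a relative of L23 at the exit of the peptide tunnel, completed the 5. Mrpl17 measured 8.36, 8.49, 8.51 and 8.39 in *mdx* mice and 8.07, 7.99, 7.95 and 8.09 in treated mice (-0.41 ± 0.08, SE, limma, adjusted p = 0.0146). Mrpl23 measured 11.42, 11.27, 11.22 and 11.23 against 10.66, 11.14, 10.89 and 10.76 (-0.42 ± 0.11, SE, limma, adjusted p = 0.0334). Again no treated mouse reached the lowest *mdx* mouse. The annotation marks both probe sets of Mrpl23 as cross-hybridizing, 1 on its own chromosome 7 and 1 on chromosome 2, and both fell, by 0.42 and 0.43. The calls of Mrpl54 and Mrpl17 held with any 1 mouse left out, while that of Mrpl52 was lost in 6 of 11 omissions (adjusted p up to 0.0737) and that of Mrpl23 in 7 (up to 0.0965).

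The 3 genes that rose, Mrps31, Mrpl39 and Mrps35, are all mitochondria-specific proteins. Mrps31, of the small-subunit head, measured 6.09, 6.09, 5.87 and 5.56 in *mdx* mice and 6.20, 6.17, 6.67 and 6.76 in T1 to T4 (0.55 ± 0.16, SE, limma, adjusted p = 0.0485). Mrpl39, of the large subunit, measured 7.80, 7.84, 7.83 and 7.60 against 8.16, 7.98, 8.26 and 8.20 (0.38 ± 0.09, SE, limma, adjusted p = 0.0284). Mrps35, of the small subunit, measured 7.0, 7.19, 6.99 and 7.09 against 7.28, 7.31, 7.48 and 7.47 (0.32 ± 0.09, SE, limma, adjusted p = 0.0473). Every treated mouse was above every *mdx* mouse in all 3, which is also the full set of genes so separated. Mrps9, a relative of bacterial S9, had a difference of like size without a call (0.54 ± 0.17, SE, limma, adjusted p = 0.0625). The treated mean of Mrps35 was 7.38 ± 0.10 (SD, n = 4) beside 7.33 ± 0.13 (SD, n = 3) in C57 mice, and its difference between *mdx* and C57 mice was not called (-0.27 ± 0.10, SE, limma, adjusted p = 0.115). The treated mean of Mrpl39 was 8.15 ± 0.12 (SD, n = 4), above all C57 mice. These calls were lost with 1 mouse left out in 10 of 11 omissions for Mrps31 (adjusted p up to 0.134), 9 for Mrps35 (up to 0.128) and 5 for Mrpl39 (up to 0.0818).

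The count depended on single mice, T2 above all. Without T2, 23 genes were called, 13 higher and 10 lower (30.7%, against 28.4% of all probe sets), and they included all 8 of the genes above. The median difference was then -0.03. The count was 2 without *mdx* replicate 4, and 3 without *mdx* replicate 3, T1, T3 or T4. The shares of all probe sets called in these last omissions are not given here.

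The third comparison, of treated *mdx* with C57 muscle, asks how far treated muscle stood from wildtype. It gave the largest downward shift: 20 of 75 genes (26.7%) were called lower, against 8.96% of all probe sets, and 1 (1.33%) higher, against 15.6%. The 21 called genes were 28.0% of the 75, close to the 24.6% of all probe sets called in either direction, so the shares differed in direction rather than in number. The median difference was -0.23 against 0.00 over all probe sets. In 27 genes (36.0%) all treated mice lay below all C57 mice, against 14.1% of all probe sets, and in 2 (2.67%) above, against 17.9%. Without T2, 30 were called, 25 lower and 5 higher (33.3% lower against 13.8% of all probe sets). Without C57 replicate 3, which had the highest member median of the 3, only 9 were called, 8 of them lower. The share of all probe sets called without that mouse is not given here, so the drop cannot be set against it. The median difference over the 75 genes stayed between -0.26 and -0.17 with any 1 mouse left out.

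**Figure D2:**
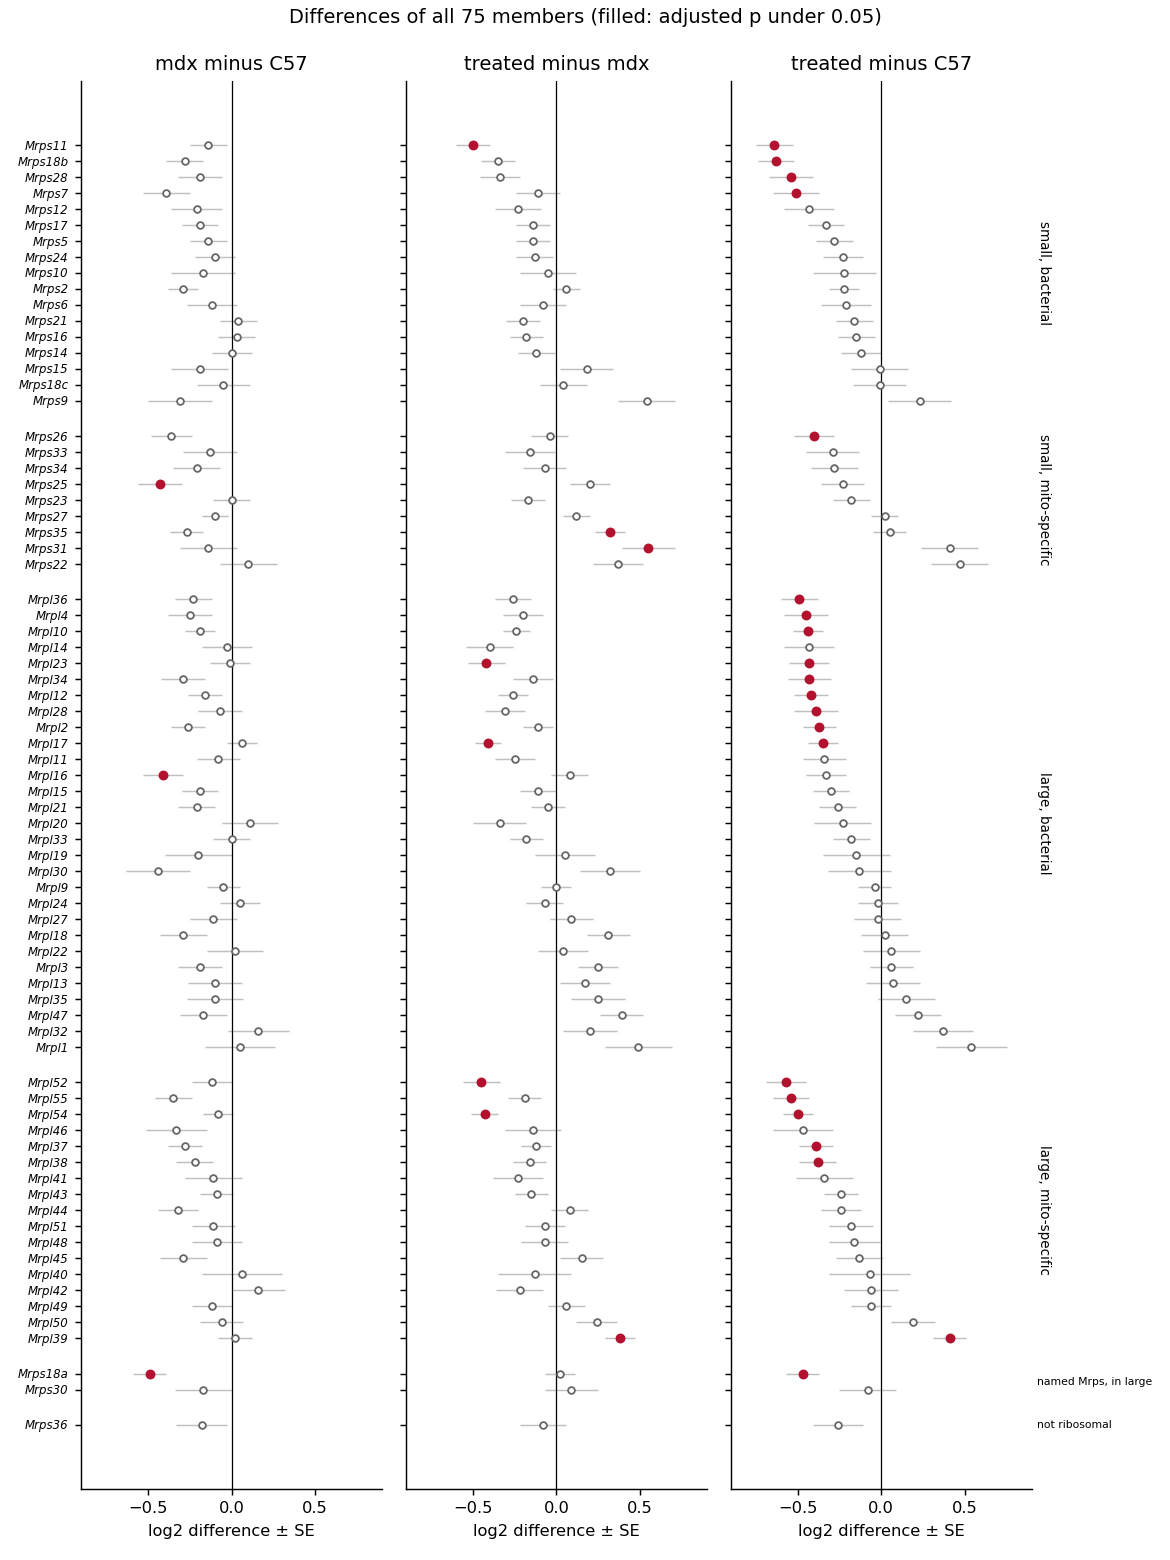
Log2 difference (x axis, with the standard error of the limma fit as bars) of each of the 75 genes (rows, grouped by subunit and by whether a bacterial relative is known) in the 3 comparisons, with called genes filled. Called genes are 3 in *mdx* minus C57, 8 in treated minus *mdx* and 21 in treated minus C57, where 20 of the 21 lie to the left of 0.

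The 5 largest falls were those of Mrps11, Mrps18b, Mrpl52, Mrpl55 and Mrps28. Mrps11, with the values above, fell by 35.8% from the C57 level (-0.64 ± 0.11, SE, limma, adjusted p = 0.00273). Mrps18b, a second relative of bacterial S18 and one that stays in the small subunit, measured 10.14, 10.14 and 10.44 in C57 mice, 10.07, 9.96, 9.94 and 9.88 in *mdx* mice and 9.40, 9.76, 9.63 and 9.67 in T1 to T4. The groups did not overlap, C57 being the highest and the treated mice the lowest. The difference was -0.28 ± 0.11 from C57 to *mdx* (SE, limma, adjusted p = 0.144) and -0.35 ± 0.10 from *mdx* to treated mice (adjusted p = 0.0514). Neither of these was called, while the difference from C57 to treated mice was (-0.63 ± 0.11, SE, limma, adjusted p = 0.00292), and it held with any 1 mouse left out.

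Mrpl52 fell by 32.8% from the C57 level (-0.57 ± 0.12, SE, limma, adjusted p = 0.00607), from C57 values of 9.45, 9.22 and 9.53. Mrpl55, another mitochondria-specific protein of the large subunit, measured 9.21, 9.22 and 9.53 in C57 mice, 9.09, 8.97, 8.98 and 8.85 in *mdx* mice and 8.73, 8.90, 8.83 and 8.66 in treated mice (-0.54 ± 0.11, SE, limma, adjusted p = 0.005). Mrps28, a small-subunit protein, measured 9.51, 9.26 and 9.59 in C57 mice, 9.44, 9.25, 9.23 and 9.12 in *mdx* mice and 8.71, 9.09, 9.10 and 8.77 in treated mice (-0.54 ± 0.13, SE, limma, adjusted p = 0.013). In all 5 genes no treated mouse reached the lowest C57 mouse, and among them only the call of Mrps28 was lost in an omission, that of C57 replicate 3 (adjusted p = 0.0607).

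Mrps18a, already low in *mdx* muscle, was as low in treated muscle (-0.47 ± 0.10 from C57, SE, limma, adjusted p = 0.00608). The third relative of S18, Mrps18c, showed no such pattern. It measured 8.78, 8.59 and 8.96 in C57 mice, 8.78, 8.81, 8.77 and 8.56 in *mdx* mice and 8.32, 8.82, 8.99 and 8.94 in treated mice, with the 3 groups overlapping and no call (adjusted p from 0.884 to 0.973). Mrps18a and Mrps18b, but not Mrps18c, were therefore called lower in treated than in C57 muscle.

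Mrpl12 and Mrpl10, both of the stalk where translation factors dock, were called lower in treated than in C57 mice, and Mrpl11 at its base was not. Mrpl12, the mitochondrial relative of L7/L12 and also known to bind the mitochondrial RNA polymerase, measured 9.63, 9.69 and 9.82 in C57 mice, 9.58, 9.65, 9.64 and 9.36 in *mdx* mice and 9.22, 9.28, 9.32 and 9.36 in treated mice. It was lower in treated than in C57 mice (-0.42 ± 0.10, SE, limma, adjusted p = 0.0105), with uncalled differences of -0.16 ± 0.10 from C57 to *mdx* (adjusted p = 0.362) and -0.26 ± 0.09 from *mdx* to treated mice (adjusted p = 0.0761). Mrpl10, which anchors the stalk, measured 9.84, 9.91 and 10.08 in C57, 9.72, 9.78, 9.79 and 9.71 in *mdx* and 9.40, 9.60, 9.47 and 9.56 in treated mice. Unlike those of Mrpl12, its 3 groups did not overlap (-0.44 ± 0.09 from C57 to treated mice, SE, limma, adjusted p = 0.00629). Mrpl11 had overlapping groups (-0.34 ± 0.13, SE, limma, adjusted p = 0.0817).

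The remaining genes called lower in treated than in C57 mice were Mrps7, Mrps26, Mrpl2, Mrpl4, Mrpl17, Mrpl23, Mrpl28, Mrpl34, Mrpl36, Mrpl37, Mrpl38 and Mrpl54, with differences from -0.51 for Mrps7 to -0.35 for Mrpl17. Calls that held with any 1 mouse left out were those of Mrps11, Mrps18a, Mrps18b, Mrpl10, Mrpl12, Mrpl52, Mrpl54 and Mrpl55. Leaving out C57 replicate 3 ended the calls of all 12 of the other genes called lower.

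Only Mrpl39 was called higher than in C57 mice (0.41 ± 0.10, SE, limma, adjusted p = 0.014), from C57 values of 7.72, 7.67 and 7.84, and the call was lost without C57 replicate 2 (adjusted p = 0.0601). Larger positive differences that were not called were those of Mrpl1 (0.54 ± 0.21, SE, limma, adjusted p = 0.081), a relative of L1 at the ribosome's tRNA exit side, and of Mrps22 (0.47 ± 0.17; adjusted p = 0.0585), and Mrps31 was close to Mrpl39 (0.41 ± 0.17; adjusted p = 0.101). Mrpl1 measured 5.20, 5.09 and 5.45 in C57 mice, 5.45, 5.80, 5.13 and 4.79 in *mdx* mice and 6.05, 5.46, 5.85 and 5.77 in treated mice. Mrps22 measured 5.18, 5.36 and 5.07 in C57 mice, 5.29, 5.31, 5.35 and 5.27 in *mdx* mice and 5.43, 5.30, 5.85 and 6.11 in treated mice. Every treated mouse was above every C57 mouse in Mrpl1 but not in Mrps22, where T2 lay inside the C57 range.

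**Figure D3:**
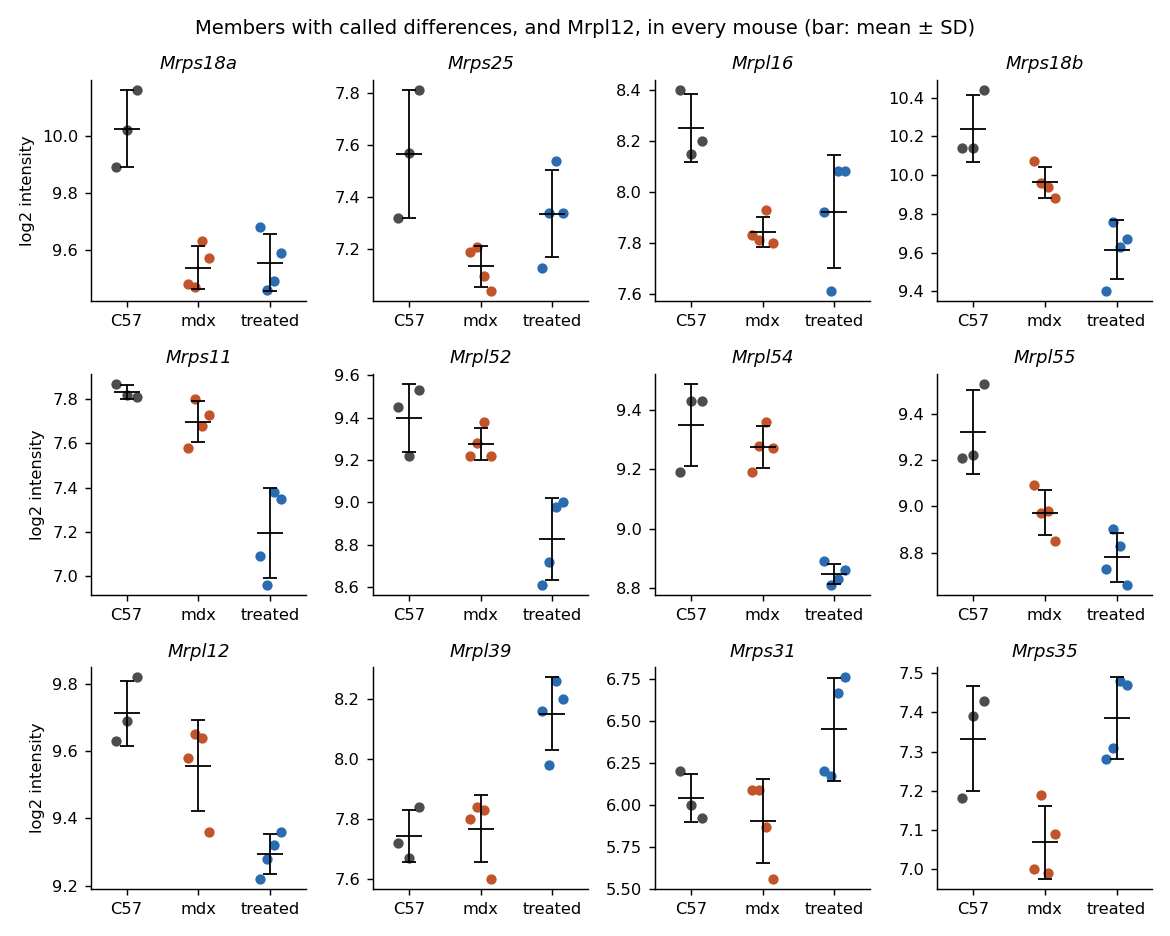
Log2 intensity (y axis, a separate scale for each gene) of 12 named genes in every mouse, by group (x axis: C57, *mdx*, Pip6e-PMO-treated *mdx*), with the mean and SD as bars. Mrps18a is low in both dystrophic groups, Mrps11, Mrpl52 and Mrpl54 are lowest in the treated mice, and Mrpl39 is highest there.

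By subunit and origin, genes called lower in treated than in C57 mice came from each of the 4 larger groups, beside 8.96% called lower and 15.6% higher of all probe sets. Of 17 small-subunit proteins with bacterial relatives 4 were called lower in treated than in C57 mice (median difference of -0.22), and of 9 mitochondria-specific small-subunit proteins 1 was (median of -0.18). Of 29 large-subunit proteins with bacterial relatives 9 were (median of -0.23), and of 17 mitochondria-specific ones 5 were, with Mrpl39 called higher (median of -0.24). Mrps18a and Mrps30, which carry an Mrps name but belong to the large subunit, split: Mrps30 measured 6.69, 6.19 and 6.67 in C57, 6.25, 6.44, 6.33 and 6.38 in *mdx* and 6.29, 6.06, 6.66 and 6.73 in treated mice, with all groups overlapping and no call. Mrps36, a component of the 2-oxoglutarate dehydrogenase complex that kept a ribosomal name, was not called either (-0.26 ± 0.15 from C57 to treated mice, SE, limma, adjusted p = 0.21, and -0.18 ± 0.15 from C57 to *mdx* mice, adjusted p = 0.51). In treated minus *mdx*, the 9 mitochondria-specific small-subunit proteins had a median of 0.12, with 2 called higher (7.26% of all probe sets) and 4 below 0. The medians of the other 3 larger groups were -0.13 to -0.07, and the difference between the groups was not tested.

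Signal level went with direction. With the 75 genes split by mean signal over the 11 mice into 3 equal groups, 15 of the 25 with the highest signal were called lower in treated than in C57 mice and all 25 had a negative difference, with a median of -0.43. The middle 25 had 3 called lower and 1 higher (median of -0.22), and the lowest 25 had 2 lower (median of -0.12). Probe sets of the whole table within the same signal ranges had medians of -0.11, -0.01 and 0.06, from the highest to the lowest range, in the same order but closer together. Of those in the highest range 12.8% were called lower, and of those in the lowest 7.32%. In *mdx* minus C57 the 3 groups of genes had medians of -0.16, -0.13 and -0.14 from the highest to the lowest signal. In treated minus *mdx* they had -0.19, -0.07 and 0.08, against -0.06, 0.01 and 0.05 for all probe sets. The part of signal level in the calls was not tested.

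At the 2 ends of the range stood Mrps21 and Mrpl47. Mrps21, a small-subunit protein with the highest signal, measured 11.08, 11.37 and 11.10 in C57 mice, 11.23, 11.30, 11.25 and 11.13 in *mdx* mice and 10.94, 10.88, 11.18 and 11.09 in treated mice, with overlapping groups (-0.16 ± 0.11 from C57 and -0.20 ± 0.10 from *mdx* to treated mice, SE, limma, adjusted p = 0.281 and 0.178). Mrpl47, with the lowest, measured 4.93, 5.15 and 4.95 in C57, 5.17, 4.81, 4.75 and 4.62 in *mdx* and 5.15, 5.11, 5.15 and 5.51 in treated mice (-0.17 ± 0.14 from C57 to *mdx*, 0.39 ± 0.13 from *mdx* to treated and 0.22 ± 0.14 from C57 to treated mice, SE, limma, adjusted p = 0.515, 0.0698 and 0.265). Neither gene was called.

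**Figure D4:**
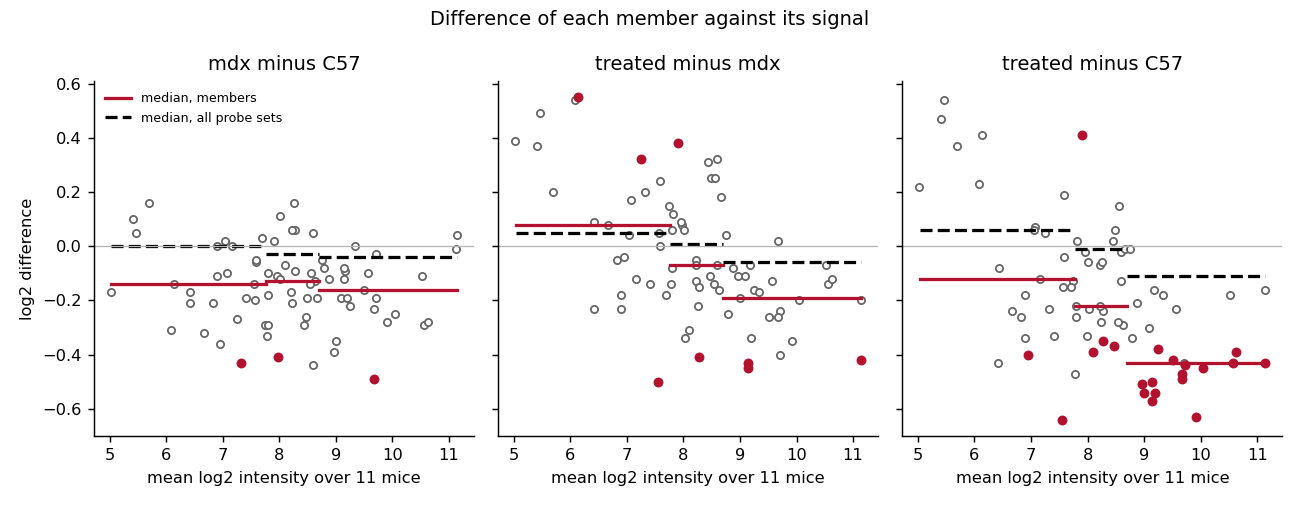
Log2 difference (y axis) of each of the 75 genes against its mean log2 intensity over the 11 mice (x axis) in the 3 comparisons, with called genes filled, the median of each 25 genes as a solid line and the median of all probe sets in the same signal range as a dashed line. In treated minus C57 the solid line steps down from -0.12 to -0.43 and the dashed line from 0.06 to -0.11.

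For Mrpl48 several probe sets differed: the chosen probe set, marked as cross-hybridizing and placed on chromosome 4 although the gene lies on chromosome 7, differed by -0.16 between treated and C57 mice (adjusted p = 0.444), and the pair on chromosome 7, marked unique, differed by 0.28 and 0.05 (limma, adjusted p = 0.263 and 0.84). For Mrps5 the chosen, cross-hybridizing probe set was not called (-0.28, limma, adjusted p = 0.0737) and the unique one was (-0.31, adjusted p = 0.0316). For Mrpl18 (0.02 ± 0.14 and -0.21 ± 0.13, SE, limma) and Mrpl27 (-0.02 ± 0.14 and 0.06 ± 0.13) neither the chosen nor the other probe set was called in treated minus C57. All of these differences of Mrpl18 and Mrpl27 but the -0.21 lie under their standard error and have no direction. The other probe set of Mrpl18 lies on chromosome 2, and the gene on chromosome 17. In all, 8 of the 75 chosen probe sets are marked as cross-hybridizing (Mrpl23, Mrpl27, Mrpl41, Mrpl48, Mrpl51, Mrps5, Mrps33 and Mrps36), and 5 of these lie on another chromosome than the gene does in RefSeq (Mrpl27, Mrpl41, Mrpl48, Mrpl51 and Mrps33). Only Mrpl23 of the 8 was called in any comparison.

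The promoters of the called genes were read for short motifs of 3 factors known to act on nuclear genes of mitochondrial proteins: NRF1 (searched as CGCATGCG), ETS factors such as GABPA (CCGGAAGT) and YY1 (AAGATGGC), on both strands, and no match overlapped another in the windows of these genes. RefSeq windows of the mouse build GRCm38.p6, from 250 bases before a start site to 50 after it, were matched for 66 of the 75 genes (72 windows). The NRF1 letters stood in 9.72% of these windows against 1.87% of the 32851 windows of all genes, the ETS letters in 16.7% against 3.89%, and the YY1 letters in 16.7% against 2.75%. At least 1 of the 3 stood in 40.3% against 8.07%. By gene, this was so for 10 of the 16 genes with a window called lower in treated than in C57 mice, for Mrpl39, the gene called higher, and for 18 of the 49 not called. A match describes the letters and says nothing of binding. The windows of all genes were neither limited to genes expressed in this muscle nor matched for base composition. An excess special to the 75 genes therefore cannot be told from one shared by expressed genes.

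The bases upstream of the start site are shown for the 4 called genes with the NRF1 letters there, since the same 8 letters stood before 3 genes that were lower and 1 that was higher in treated than in C57 mice. Capitals mark these letters, and each run is written 5′ to 3′ along the gene, ending at the base before the start site. Mrps18b is at chr17:35916441-35916690 (minus strand), Mrpl10 at chr11:97041332-97041581 (plus), Mrpl17 at chr7:105811088-105811337 (minus) and Mrpl39 at chr16:84735245-84735494 (minus).
Mrps18b: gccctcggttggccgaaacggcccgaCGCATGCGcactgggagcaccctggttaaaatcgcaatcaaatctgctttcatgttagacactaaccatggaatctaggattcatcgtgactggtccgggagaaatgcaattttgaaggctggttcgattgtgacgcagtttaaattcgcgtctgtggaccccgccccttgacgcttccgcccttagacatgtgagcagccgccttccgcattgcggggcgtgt
Mrpl10: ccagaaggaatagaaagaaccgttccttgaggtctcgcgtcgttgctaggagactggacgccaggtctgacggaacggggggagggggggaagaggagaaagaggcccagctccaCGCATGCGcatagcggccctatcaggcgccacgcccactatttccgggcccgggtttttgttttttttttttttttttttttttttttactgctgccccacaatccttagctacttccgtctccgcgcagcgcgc
Mrpl17: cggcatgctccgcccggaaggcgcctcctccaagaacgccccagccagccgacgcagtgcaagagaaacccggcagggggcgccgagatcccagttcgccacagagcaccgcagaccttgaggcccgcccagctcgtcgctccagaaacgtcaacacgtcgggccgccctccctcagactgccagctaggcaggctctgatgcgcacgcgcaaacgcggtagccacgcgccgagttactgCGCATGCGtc
Mrpl39: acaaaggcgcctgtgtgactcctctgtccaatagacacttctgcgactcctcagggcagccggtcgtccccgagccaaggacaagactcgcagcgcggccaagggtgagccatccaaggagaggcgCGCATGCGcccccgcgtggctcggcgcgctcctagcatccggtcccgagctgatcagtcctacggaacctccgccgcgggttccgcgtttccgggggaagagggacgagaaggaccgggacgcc
Counted from the start site, the letters began at base -224 in Mrps18b, -135 in Mrpl10, -10 in Mrpl17 and -124 in Mrpl39. The differences between treated and C57 mice were -0.63, -0.44, -0.35 and 0.41 in the same order. The same letters also stood upstream of Mrpl9, Mrpl22 and Mrpl32, which were not called in this comparison (limma, adjusted p = 0.769, 0.82 and 0.143).

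For the other motifs an example each is shown, again from called genes, with the motif in capitals. Mrps26 at chr2:130563697-130563756 (plus strand) carries the ETS letters, read on the other strand as ACTTCCGG, and Mrpl36 at chr13:73330949-73331008 (plus) carries the YY1 letters, read as GCCATCTT.
Mrps26: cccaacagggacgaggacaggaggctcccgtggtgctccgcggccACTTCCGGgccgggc
Mrpl36: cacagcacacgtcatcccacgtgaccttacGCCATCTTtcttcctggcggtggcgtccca
Both were lower in treated than in C57 mice, Mrps26 by 0.40 ± 0.12 (SE, limma, adjusted p = 0.0356) and Mrpl36 by 0.49 ± 0.11 (adjusted p = 0.0108). The ETS letters stood in windows of 12 genes, of which only Mrps26 and Mrpl52 were called in this comparison, both lower. The YY1 letters also stood in windows of 12 genes. Of these, Mrpl36, Mrpl37, Mrps7, Mrps11 and Mrps18a were called lower, and the others, such as Mrpl35 and Mrps27, were not called.

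A pair of the genes, Mrps11 and Mrpl46, are neighbours that are transcribed away from each other from start sites with 41 bases between them, at chr7:78783090-78783130 (written along Mrps11, plus strand). The run is shown because both genes start at its ends.
Mrps11: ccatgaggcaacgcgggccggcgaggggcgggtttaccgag
None of the 3 motifs lies in these bases. Mrps11 fell in treated muscle as described. Mrpl46, a mitochondria-specific protein of the large subunit, measured 8.22, 7.92 and 8.06 in C57 mice, 7.68, 7.85, 7.80 and 7.63 in *mdx* mice and 7.72, 6.99, 7.83 and 7.84 in treated mice. All treated mice lay below all C57 mice in both genes, but T2 was far below the other treated mice in Mrpl46, and Mrpl46 was not called in treated minus C57 (-0.47 ± 0.18, SE, limma, adjusted p = 0.076) or in treated minus *mdx* (-0.14 ± 0.17; adjusted p = 0.59).

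Genes that act with the ribosome were called in both directions. Beside the lists of this and the next paragraph, 7.26% of all probe sets were called higher and 3.88% lower in treated minus *mdx*. In treated minus C57 these shares were 15.6% and 8.96%, and in *mdx* minus C57 they were 7.06% and 4.96%. Of 7 ribosomal proteins whose symbols do not follow the rule, Ptcd3, a small-subunit protein, was higher in treated than in *mdx* mice (0.55, limma, adjusted p = 0.0457), and Gadd45gip1, of the large subunit, was lower in treated than in C57 mice (-0.44, adjusted p = 0.0213). The other 5, among them Dap3 and Aurkaip1, were not called. Of 9 tested translation factors 3 were higher in treated than in *mdx* mice: Gfm1, the elongation factor G of mitochondria (0.72, adjusted p = 0.0237), Guf1, a relative of bacterial LepA (0.70, adjusted p = 0.0228), and Mtfmt, which formylates the initiator tRNA (0.46, adjusted p = 0.0319). Their median difference was 0.45, against -0.08 for the 75 ribosomal protein genes and 0.02 for all probe sets. Tsfm, the exchange factor of Tufm, was lower than in C57 mice in both *mdx* (-0.50, adjusted p = 0.0356) and treated mice (-0.48, adjusted p = 0.0273), and Tufm itself was not called.

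Of 18 genes for assembly of the mitochondrial ribosome and modification of its RNA, 5 were lower in treated than in C57 mice, Malsu1 the most (-0.64, limma, adjusted p = 0.00284), followed by Mtg1, Mpv17l2, Eral1 and Rbfa (-0.42 to -0.40), and 1 was higher, Gtpbp10 (0.64, adjusted p = 0.0466). Malsu1, which assists assembly of the large subunit, was the 1 of the 18 called in *mdx* mice (-0.55, adjusted p = 0.00856). Gtpbp10, a GTPase of large-subunit assembly, and Fastkd2, an RNA-binding protein of mitochondria, were higher in treated than in *mdx* mice (0.76 and 0.60, adjusted p = 0.0343 and 0.0291). Of 17 mitochondrial aminoacyl-tRNA synthetases, Rars2 was higher in treated than in *mdx* mice (0.54, adjusted p = 0.0258), and against C57 mice Rars2 and Lars2 were higher and Ears2 and Cars2 lower. The synthetases called higher in treated minus *mdx* were 5.88% of the list, against 7.26% of all probe sets. Those called in either direction in treated minus C57 were 23.5%, against 24.6%. Of 6 genes of mitochondrial transcription and messenger RNA stability, Lrpprc rose from *mdx* to treated mice (0.60, adjusted p = 0.0168), while Polrmt, the mitochondrial RNA polymerase, was lower than in C57 mice in both *mdx* and treated mice (-0.40 and -0.35, adjusted p = 0.0165 and 0.0196). Of 9 regulators of mitochondrial biogenesis, Gabpa, the DNA-binding subunit of the ETS factor named above, was higher in treated mice than in *mdx* (0.70, adjusted p = 0.0143) and in C57 mice (0.63, adjusted p = 0.00934), and its partner Gabpb1 and the coactivator Ppargc1a were higher than in C57 mice (0.41 and 0.74, adjusted p = 0.0308 and 0.0453). Nrf1 and Yy1 were not called in any comparison.

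Nuclear subunits of the respiratory chain and cytosolic ribosomal proteins gave the following values beside these. In treated minus C57, 7 of 38 complex I subunits were called, all lower (18.4%, median of -0.23), 2 of 45 tested subunits of complexes II to V, both lower (4.44%, median of -0.13), and 7 of 82 tested cytosolic ribosomal proteins, all lower (8.54%, median of -0.19), beside the 26.7% lower and the median of -0.23 of the 75 genes. In *mdx* minus C57 the medians were -0.11, -0.08 and -0.04 in the same order, beside -0.14. No test of the difference between these groups was made.

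**Figure D5:**
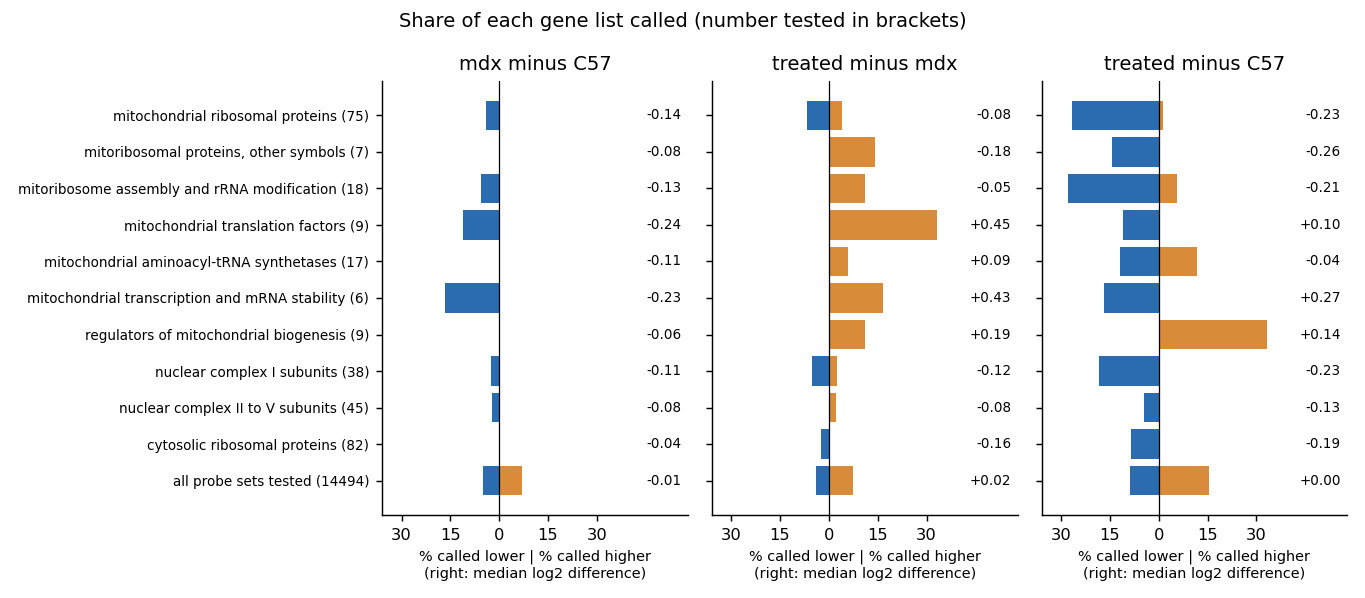
Percent of the tested genes of each list called lower (bars to the left) and higher (bars to the right) in the 3 comparisons (x axis), with the median log2 difference printed at the right of each row and the number tested in brackets. In treated minus C57 the 75 mitochondrial ribosomal protein genes have 26.7% called lower and 1.33% higher, beside 8.96% and 15.6% of all probe sets.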

How the data were processed

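The deposited values are linear intensities that the authors made in Affymetrix Expression Console with the RMA method, which corrects background, equalizes the arrays by quantiles and summarizes probes by median polish, per the submitters' processing notes and the study's methods. The table holds 28350 probe sets for 11 arrays, 1 mouse each, and replicates were not pooled. Its log2 values lie on whole hundredths. Positions in the table come without a build. The number of arrays, 3 or 4 a group, limits the precision. Scan times are not given in the sources used here.

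Intensities were turned to log2 and probe sets with a group mean of 30 or more kept (14494). All 3 groups were fitted in limma 3.58.1 (R 4.3.3) with empirical Bayes moderation and Benjamini-Hochberg adjustment over all tested probe sets. The procedure was tested on simulated data. Motifs were counted in Python 3.11.15. The genes, the lists and the tests were chosen with earlier results of these data known. Values in every mouse were given for the 5 largest called rises and falls of a comparison (the 3 largest differences where fewer than 3 were called), the highest and lowest signal, and members of special role. Mrpl10 and Mrpl46 were added after their values were seen. No difference smaller than its standard error is given for a gene named for its role. Gene symbols matched RefSeq for all 75 genes.

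The alternatives tried were the methods' t-test, a fit of only the compared groups, a trended and robust prior, array weights, other minimum signals, centred or quantile-normalized arrays, averaging all probe sets of a gene, the study's threshold, a replicate block, leaving out each mouse and, chosen after seeing the data, only probe sets marked unique.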

Additional observations from a re-analysis of the deposited data

Results flagged for a closer look

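A sample far from the other 3 of its group was looked for in 46 groups of 4 mice, where chance alone marks about 1 group in 20. It was found 3 times. Mrpl39 measured 7.60 in *mdx* replicate 4, below the 7.80 to 7.84 of the other *mdx* mice. Mrps36 measured 7.56 in the same mouse, against 7.83 to 7.86 in the other 3. Mrpl47 measured 5.51 in T4, above the 5.11 to 5.15 of the other treated mice.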

How the results depend on the processing

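The median difference over the 75 genes kept its sign or came to 0.00 in every alternative: it ranged from -0.18 to -0.10 in *mdx* minus C57, from -0.13 to 0.00 in treated minus *mdx* and from -0.28 to -0.12 in treated minus C57. The counts of called genes moved more, and the cause was not tested. In *mdx* minus C57, 3 by default, the count was 1 with a trended and robust prior, 1 without a minimum signal, 10 with array weights, 6 with arrays centred on their median and 0 by the study's threshold of an unadjusted p under 0.01 with a 1.5-fold change. Leaving out single mice gave 1 to 6. In treated minus *mdx*, 8 by default, it was 2 by the methods' t-test after Benjamini-Hochberg adjustment, 4 with only both groups fitted, 27 with array weights (16 higher), 5 after repeated quantile normalization, 0 by the study's threshold and 2 to 23 with single mice left out. In treated minus C57, 21 by default, it was 9 by the t-test, 35 with array weights (9 higher), 2 by the study's threshold and 9 to 30 with single mice left out. With the replicate number as a block (replicate block) the counts were 1, 2 and 13. Shares of all probe sets called are given only for the default and without T2. A change of count special to these genes therefore cannot be told from a general one in the other settings. Deviations of same-numbered mice from their group means correlated at -0.297 to 0.153. With 3 or 4 mice a group, these values cannot settle whether the numbers pair the mice. Single genes were followed for 36 pairs of gene and comparison, picked mainly for large or called differences. Over the alternatives, 685 of their values kept their side of the threshold, and 107 lost and 21 gained a call. The sign turned in 1, Mrpl20 in *mdx* minus C57 at -0.01 without C57 replicate 1 (-0.01 to 0.26 over single mice left out). Genes outside these pairs also turned their sign with 1 mouse left out, such as Mrpl14 (-0.16 to 0.11) and Mrpl40 (-0.12 to 0.27) in *mdx* minus C57. Probe sets marked unique alone changed no count by over 1.5 times.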
